A study of Mus musculus with 4 samples.

Results

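The ATP-binding cassette (ABC) transporter family was taken as every gene row whose symbol is Abc followed by a subfamily letter from a to g, a number and at most 1 further letter. This rule found 50 of the 52459 genes listed, 16 in subfamily A, 10 in B, 10 in C, 4 in D, 1 in E, 3 in F and 6 in G. Their RNA was measured in 4 full-length (FL) RNA-seq libraries of intestinal stem cells (ISCs), the Lgr5-positive cells at the crypt base that renew the intestinal epithelium. The ISCs came from the small intestine of untreated wild-type (WT) C57/Bl6 female mice, and no transgene was used. Young ISCs (ISC_2mth) came from mice of 2 months and old ISCs (ISC_22mth) from mice of 22 months, with 2 pools of 5 animals at each age, so that differences between single animals cannot be seen. Cells were sorted by the SM6 strategy, which keeps EPCAM-positive cells with high CD44 and EPHB2 and leaves out cells with the endothelial marker CD31 or the leukocyte marker CD45.

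ABC proteins bind and hydrolyse ATP with a conserved nucleotide-binding domain. In most subfamilies this domain drives a membrane-spanning channel that exports lipids, sterols, bile salts, drugs, conjugates or metals from the cytosol, or moves them into an organelle. Members of subfamilies B, C and G limit the uptake of drugs and plant sterols at the intestinal surface, members of D load fatty acids into peroxisomes, and members of E and F have no membrane-spanning part and act on ribosomes. Some members carry the whole transporter in a single chain, while those of D and G and the mitochondrial members of B work as pairs of subunits.

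The libraries held between 11662654 and 15975698 counts on genes, of which mitochondrially encoded genes took between 62.6% and 73.8%, with the higher shares in old ISCs. All 50 members together held between 6422 and 7634 counts per pool. Each of 10 ISC markers passed the filter on low counts, and their summed level was 3126 and 2941 normalised CPM (counts divided by the TMM-scaled size of their library) at 2 months, against 2952 and 3178 at 22 months. The sum hides markers that moved apart, as 4 of 10 had a positive log2 fold change. Axin2, Rnf43, Sox9 and Lgr5 were lower in both old pools (-0.46, -0.41, -0.28 and -0.16). Ascl2, Aqp4 and Slc12a2 were higher in both (0.33, 0.29 and 0.25), and 0 of the 10 were called. Leukocyte markers summed to 11.0 and 13.9 CPM at 2 months, against 21.2 and 21.3 CPM at 22 months, with 6 of 14 at 0 and nearly all counts on Itgam, which was called higher in old ISCs (log2 fold change 0.78, FDR = 0.030), and endothelial and stromal markers to at most 0.983 CPM. In bulk RNA of sorted cells, fewer cells of a type and less RNA per cell cannot be told apart.

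A gene was tested when at least 1 pool held more than 5 of its reads, at a level above 1 CPM of the unscaled total, which 28 of the 50 members met. The other 22 comprised 12 with 0 counts in all 4 libraries and 10 with at most 10 counts in any library. The 12 at 0 were Abca4, Abca6, Abca8a, Abca9, Abca13, Abca15, Abca16, Abca17, Abcb5, Abcb11, Abcd2 and Abcg3, most of them genes known from other tissues, such as the retinal Abca4 and the hepatic bile salt pump Abcb11. A count of 0 allows up to 3 counts, or between 0.199 and 0.246 CPM in these libraries, and covers counting error only, as amplified reads are not independent molecules. Among the 10 with few counts, Abcb9, a lysosomal peptide transporter, had 3 and 3 counts at 2 months, against 10 and 9 at 22 months. Abca12, a lipid transporter of the skin, had 0 and 0 counts at 2 months, against 7 and 2 at 22 months. Abcc8, the sulphonylurea receptor of endocrine cells, had 0, 3, 8 and 2 counts in the same order. Its relative Abcc9 had 2 and 2 counts at 2 months, against 0 and 0 at 22 months. The remaining 6, Abca8b, Abca14, Abcb1b, Abcb4, Abcc12 and Abcg4, had between 0 and 6 counts in every library. Abca5, Abcb6 and Abcg1 passed the filter through young pools alone, so that their lower values in old ISCs were partly fixed by the filter.

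Levels were compared between members per kb of exon, since longer genes collect more reads. By this measure the peroxisomal fatty acid transporter Abcd3, the ribosome-associated Abcf1 and Abce1, and the apical conjugate exporter Abcc2 were among the highest, with a mean over the 4 pools of 8.70, 8.63, 8.54 and 8.07 CPM per kb. Abcc2 alone held 13.3% of all counts of the family, and the 10 genes with most counts held 76.3%. The next levels per kb belonged to the mitochondrial Abcb8, the sterol exporters Abcg8 and Abcg5 and the drug exporter Abcb1a, between 4.21 and 5.85 CPM per kb. Abcf2, Abcf3, Abcg2 and Abcc3 lay between 2.93 and 3.77 CPM per kb. Abca3 was the highest of subfamily A, with only 1.02 CPM per kb, and Abca5, Abcb6 and Abcg1 were at most 0.0914.

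**Figure D1:**
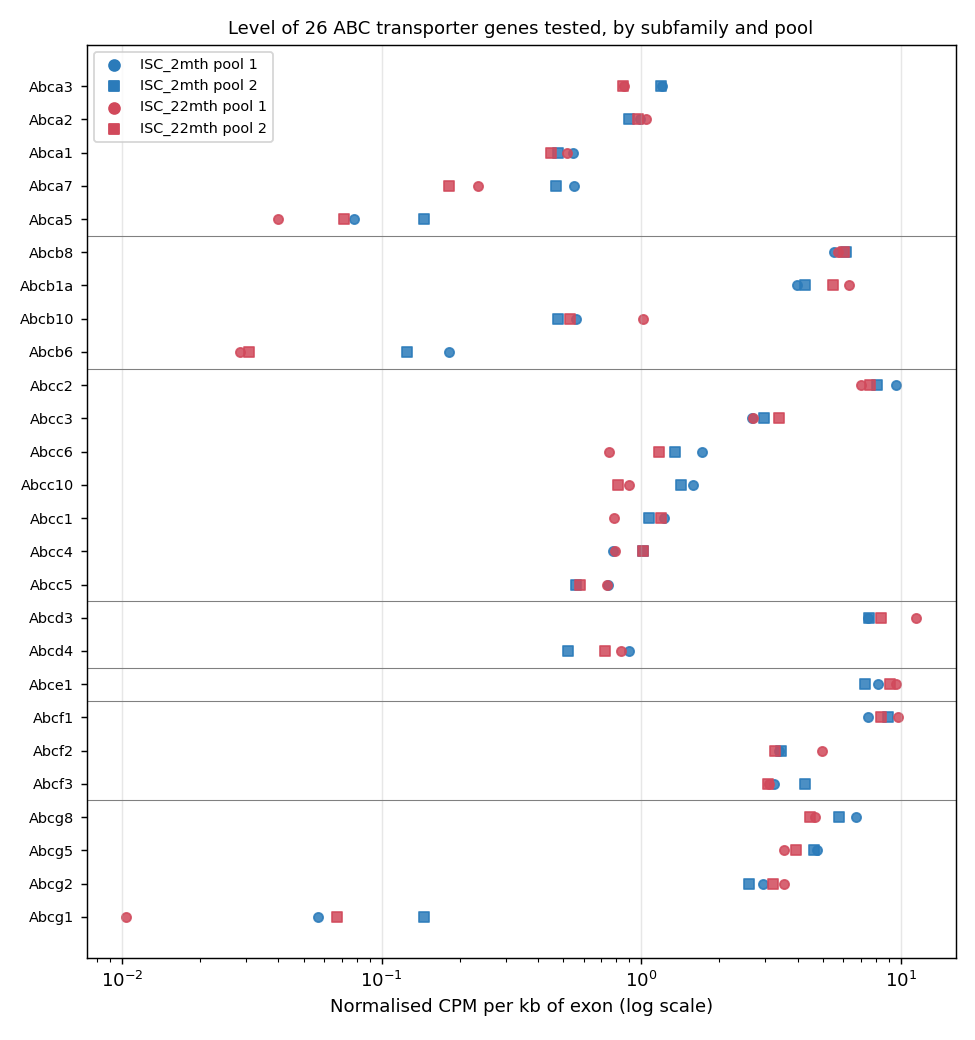
Level of 26 of the 28 ABC transporter genes tested, as normalised CPM per kb of exon on a log axis, grouped by subfamily from A at the top to G at the bottom. Each point is 1 pool (circles pool 1, squares pool 2, blue ISC_2mth, red ISC_22mth). Abcd3, Abcf1, Abce1 and Abcc2 lie furthest to the right, and Abcg1, Abcb6 and Abca5 lie below 0.2 CPM per kb.

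With TMM scaling the summed level of the family was slightly higher at 22 months, while its subfamilies differed in direction. All 50 members summed to 512 and 506 CPM at 2 months, against 549 and 526 CPM at 22 months. Subfamily B stood at 112 ± 7.64 CPM at 2 months and 141 ± 0.283 CPM at 22 months (mean ± SD over 2 pools of each age), and its ages did not overlap. Subfamily A was 29.3 ± 0.884 CPM in young ISCs and 24.1 ± 0.877 CPM in old ISCs, and subfamily C was 141 ± 12.02 and 119 ± 11.6 CPM, with both old pools below both young pools in each case. The sum of C holds only genes with an Abc symbol. Cftr, which belongs to subfamily C under another symbol, is not in it. That gene alone stood at 224.6 and 236.9 CPM at 2 months, against 250.2 and 249.6 CPM at 22 months. The lower sum of C therefore does not cover the whole subfamily. Subfamily F was 58.4 ± 7.23 and 61.6 ± 7.35 CPM, and its pools overlapped. Subfamily G was 59.7 ± 4.43 and 55.1 ± 1.31 CPM, and its old pools lay just below its young pools. The direction of the family rested on the scaling. As CPM of the unscaled total counts the family stood at 637 and 570 at 2 months, against 454 and 451 at 22 months, subfamily B stood at 132.2 and 132.1, against 116 and 121, and as a share of counts outside mitochondrial genes the family took 0.170% and 0.166%, against 0.174% and 0.167%. With 2 pools of each age no test was made of these sums.

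**Figure D2:**
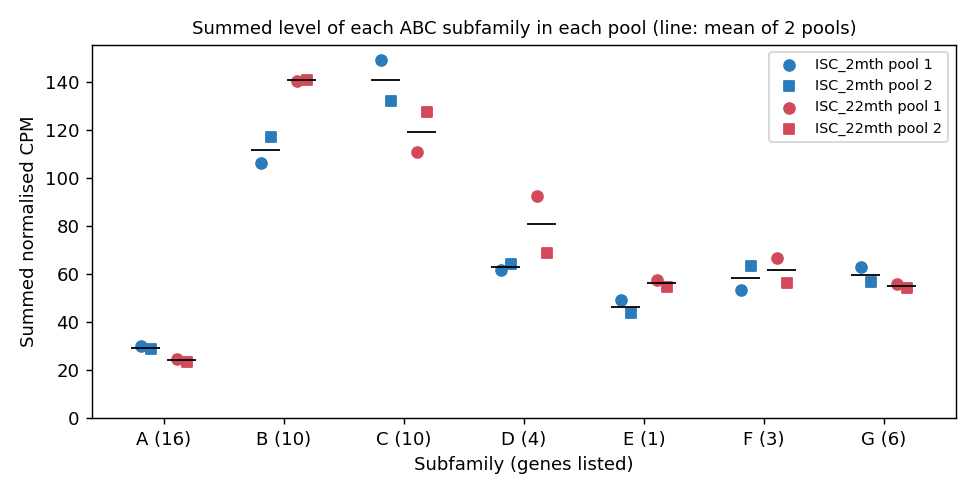
Summed normalised CPM of each ABC subfamily in each pool, with the number of genes listed in brackets, blue for ISC_2mth and red for ISC_22mth, circles for pool 1 and squares for pool 2, and a line at the mean of the 2 pools. Subfamilies B, D and E are higher in both old pools, A, C and G are lower in both, and F overlaps, all with TMM scaling. Cftr is not in the sum of C. As CPM of the unscaled total counts, B, E and F are lower in both old pools and D overlaps.

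Ages were compared gene by gene with edgeR's quasi-likelihood test, with Benjamini-Hochberg adjustment (FDR) over all 13692 genes tested. None of the 28 members had FDR under 0.05, against 2.26% of all genes tested, made up of 1.63% with higher and 0.628% with lower values at 22 months. The lowest FDR was 0.070, for Abcc10, and the next 0.079, for Abcb1a. At an unadjusted p under 0.05 there were 10 members of 28, or 35.7%, against 16.9% of all genes tested. Of these, 4 were higher in old ISCs (background 9.26%) and 6 were lower (background 7.65%). In 5 members, or 17.9%, each old pool exceeded each young pool, against 24.0% of all genes tested, and in 10 members, or 35.7%, each old pool stood below, against 23.6%. The 6 lower members include Abcb6, and the 10 include Abcb6 and Abca5. Both genes passed the filter through young pools alone, so these counts of lower members were partly fixed by the filter. The log2 fold change was above 0 in 15 members (53.6%), against 49.5% of all genes tested. Over the members the log2 fold change had a median of 0.0039, beside -0.0049 over all genes tested, and the median absolute log2 fold change was 0.28, beside 0.26. With limma voom with sample quality weights 0 members were called, against 2.34% of all genes, and 10 had an unadjusted p under 0.05, against 16.1%. With DESeq2 0 members were called, against 1.44%, and 6 had an unadjusted p under 0.05, against 10.2%. Abcb1a and Abcc10, or 7.14% of the members, were called by edgeR's likelihood ratio test, against 4.46% of all genes. Scaling by total counts lowered the log2 fold changes of all genes by a median of 0.50 and left 2 of the 28 members above 0 and 10 called lower, or 35.7%, near the 34.0% of all genes called. Relative to that shift all 28 members kept their sign. A change of scale moves all genes by nearly the same amount, so this outcome was fixed in advance and is no test of direction. With a pool left out, 2 members were called without ISC_22mth pool 1 (Abcc10 among them), against 4.80% of all genes, and 3 without ISC_22mth pool 2 (Abcb1a, Abcc6 and Abcd3), against 5.22%. Members with an unadjusted p under 0.05 numbered 3 without ISC_2mth pool 1 (9.79% of all genes), 9 without ISC_2mth pool 2 (13.8%), 5 without ISC_22mth pool 1 (17.5%) and 12 without ISC_22mth pool 2 (17.6%).

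**Figure D3:**
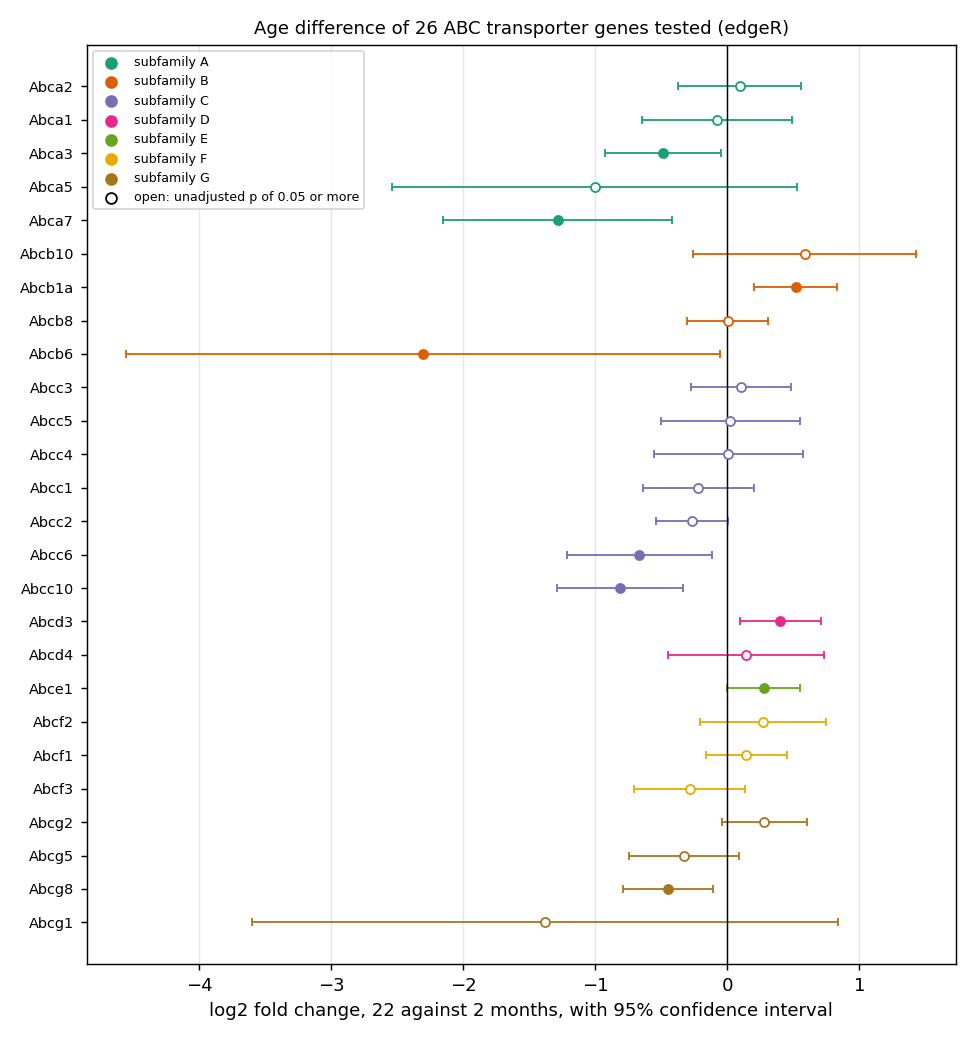
Log2 fold change of 26 of the 28 ABC transporter genes tested, 22 against 2 months, with its 95% confidence interval from edgeR's quasi-likelihood test, coloured and grouped by subfamily. Filled points have an unadjusted p under 0.05 (9 of the genes shown) and open points do not. With TMM scaling, filled points of B, D and E lie to the right of 0, apart from Abcb6, and those of A, C and G to the left.

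The drug exporter Abcb1a was among the members with the clearest age difference. Abcb1a encodes P-glycoprotein, which pumps a wide range of hydrophobic drugs back into the gut lumen. It had 315 and 353 counts at 2 months, against 458 and 366 at 22 months, or 21.7, 23.4, 34.7 and 30.0 normalised CPM. The ages did not overlap. The log2 fold change was 0.52 (95% interval 0.20 to 0.83, FDR = 0.079), which did not pass the threshold. Without ISC_22mth pool 2 it was 0.62 (FDR = 0.014), where the single old pool is assumed to vary like the young pools, without ISC_22mth pool 1 it was 0.41 (FDR = 0.19), and without ISC_2mth pool 1 it was 0.47 (FDR = 0.41). Abcb1a lies on chromosome 5 from 8660077 to 8748575 of GRCm38. Its neighbour and near-copy Abcb1b, from 8798147 to 8866315, had 0, 0, 0 and 1 counts, so that in these ISCs almost all reads of the pair were assigned to Abcb1a. Of the 50-nt stretches of Abcb1a, 22.5% are shared with other genes, 889 of them with Abcb1b, and its exons overlap the antisense gene Gm42686 over 553 bp, so its count is uncertain.

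Other members of subfamily B had values in both directions, none past the threshold. Abcb8, a mitochondrial exporter tied to iron handling, was 27.7 ± 2.12 CPM in young and 27.8 ± 1.05 CPM in old ISCs, a log2 fold change of 0.0014 (interval -0.31 to 0.31). Abcb10, which takes part in haem synthesis, had 35 and 31 counts at 2 months, against 58 and 28 at 22 months, and its pools overlapped (log2 fold change 0.58, interval -0.26 to 1.43). Abcb6, a porphyrin transporter, had 14 and 10 counts at 2 months, against 2 and 2 at 22 months. The ratio of its summed counts, old over young, was 0.194 (exact 95% counting interval 0.0489 to 0.564), with a fitted log2 fold change of -2.30 (interval -4.55 to -0.058, FDR = 0.28 by edgeR). The counting interval leaves out the spread between pools and takes reads as independent, so it is too narrow. It passed the filter through young pools alone, and 50% of its 50-nt stretches lie in the overlapping gene Gm29253, so its count is uncertain.

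Subfamily C, the multidrug resistance proteins, held the lowest FDR of the family. Abcc10, a broad drug exporter, had 157 and 147 counts at 2 months, against 81 and 68 at 22 months, or 10.8, 9.74, 6.13 and 5.57 CPM. Both old pools lay well below both young pools. The log2 fold change was -0.81 (interval -1.29 to -0.34, FDR = 0.070), without ISC_22mth pool 1 it was -0.88 (FDR = 0.049), and without ISC_2mth pool 1 it was -0.73 (FDR = 0.40). It was also called by the likelihood ratio test (FDR = 0.031), and correcting each library for GC content and length gave -0.61 (FDR = 0.23). Abcc10 lies on chromosome 17 from 46303221 to 46328352, and its exons overlap those of Dlk2, on the opposite strand, over 51 bp.

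Abcc6, which mediates the release of ATP from cells, had 142 and 116 counts at 2 months, against 57 and 82 at 22 months. The old pools stood at 4.31 and 6.72 CPM, below the young pools at 9.80 and 7.69 CPM, with a log2 fold change of -0.67 (interval -1.22 to -0.12, FDR = 0.20). Without ISC_22mth pool 2 it was -1.01 (FDR = 0.026), and without pool 1 it lay at -0.38, the lowest size of the 4 fits that left out a pool. Abcc2, or MRP2, which exports glutathione and glucuronide conjugates into the lumen, was the most abundant of the genes of the subfamily with an Abc symbol. Its values were 81.9 and 68.8 CPM at 2 months, against 59.9 and 64.9 CPM at 22 months, which did not overlap but gave a log2 fold change of only -0.27 (interval -0.54 to 0.0013, FDR = 0.30). It was -0.14 without ISC_2mth pool 1 (FDR = 0.87) and -0.40 without ISC_2mth pool 2.

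The other 4 members of subfamily C tested gave overlapping pools. Abcc1, the basolateral MRP1, was 17.3 ± 1.64 CPM in young and 14.9 ± 4.39 CPM in old ISCs, with a log2 fold change of -0.22 (interval -0.64 to 0.20) that became 0.058 without ISC_22mth pool 1. Abcc3, a basolateral exporter of bile acids and glucuronides, was 16.1 ± 1.26 and 17.3 ± 2.86 CPM, a log2 fold change of 0.10 (interval -0.27 to 0.48). For Abcc3 it became -0.071 without ISC_22mth pool 2 and 0.27 without ISC_22mth pool 1. Abcc4 and Abcc5, which export cyclic nucleotides, had log2 fold changes of 0.0065 (interval -0.56 to 0.57) and 0.024 (interval -0.50 to 0.55).

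The sterol exporters of subfamily G, Abcg5 and Abcg8, were lower in both old pools. Their products join into a heterodimer that returns plant sterols and cholesterol to the gut lumen. Abcg8 had 366 and 327 counts at 2 months, against 232 and 205 at 22 months, or 23.5 ± 2.53 and 17.2 ± 0.542 CPM, a log2 fold change of -0.45 (interval -0.79 to -0.11, FDR = 0.17). Abcg5 had 186 and 190 counts at 2 months, against 127 and 130 at 22 months, or 12.7 ± 0.171 and 10.1 ± 0.733 CPM, a log2 fold change of -0.33 (interval -0.74 to 0.085, FDR = 0.42). Neither passed the threshold, and neither gene's ages overlapped. The ratio of Abcg8 to Abcg5 per kb of exon was 1.42 and 1.25 at 2 months, against 1.32 and 1.14 at 22 months, so that the ratios of the 2 ages overlapped.

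Abcg5 and Abcg8 lie head to head on chromosome 17, and the bases between their RefSeq start sites are shown because this stretch can serve both genes. Abcg5 runs on the minus strand from its start at 84683011, and Abcg8 on the plus strand from its start at 84683121. The 109 bases between them, chr17:84683012-84683120 on the plus strand of GRCm38.p6, hold the letters of a TATA box in capitals, which read TATAAA on the strand of Abcg5. This match begins 84 bases before the Abcg5 start. On the strand of Abcg8 it is reversed and begins 31 bases before that start. Its use by either gene was not tested. A CCAAT box ends at the base of the Abcg5 start, just outside the stretch.
Abcg5-Abcg8: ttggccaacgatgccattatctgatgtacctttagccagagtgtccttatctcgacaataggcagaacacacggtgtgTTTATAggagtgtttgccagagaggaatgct
In the annotation used, exons of the 2 genes overlap over 82 bp, as Abcg8 has a further start inside Abcg5, and without strand the reads of that overlap cannot be divided between them.

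Abcg2, the breast cancer resistance protein, which pumps drugs and urate into the lumen, had higher values in both old pools. It was 24.1 and 21.2 CPM at 2 months, against 28.8 and 26.1 CPM at 22 months, a log2 fold change of 0.28 (interval -0.042 to 0.60, FDR = 0.37), and its ages did not overlap. Abcg1, a sterol exporter of macrophages and other tissues, had 6 and 16 counts at 2 months, against 1 and 6 at 22 months. Its pools overlapped, it passed the filter through young pools alone, and its log2 fold change was -1.38 (interval -3.60 to 0.84, FDR = 0.55).

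Subfamily A, which moves lipids across membranes, had 4 of 5 members tested with a negative log2 fold change, among them Abca5, which passed the filter through young pools alone. Abca7, a phospholipid transporter, had 54 and 48 counts at 2 months, against 21 and 15 at 22 months, or 3.73, 3.18, 1.59 and 1.23 CPM. Both old pools lay below 2 CPM and both young pools above 3 CPM, a log2 fold change of -1.28 (interval -2.15 to -0.42, FDR = 0.12). Abca3, known for filling the lamellar bodies of lung surfactant cells, was 11.2 and 11.1 CPM at 2 months, against 8.02 and 7.94 CPM at 22 months. Its replicates agreed most closely of the subfamily, and its log2 fold change was -0.49 (interval -0.92 to -0.049, FDR = 0.24). Exons of Abca3 overlap those of D330041H03Rik, on the opposite strand, over 914 bp, and 10.1% of its 50-nt stretches occur in other genes. Abca1, the cholesterol exporter that loads apolipoprotein A1, was 5.31 ± 0.486 and 5.02 ± 0.498 CPM, a log2 fold change of -0.080 (interval -0.65 to 0.49). Abca2, which is known from the nervous system, was 7.88 ± 0.560 and 8.41 ± 0.420 CPM, and Abca5 had 13 and 25 counts at 2 months, against 6 and 10 at 22 months.

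**Figure D4:**
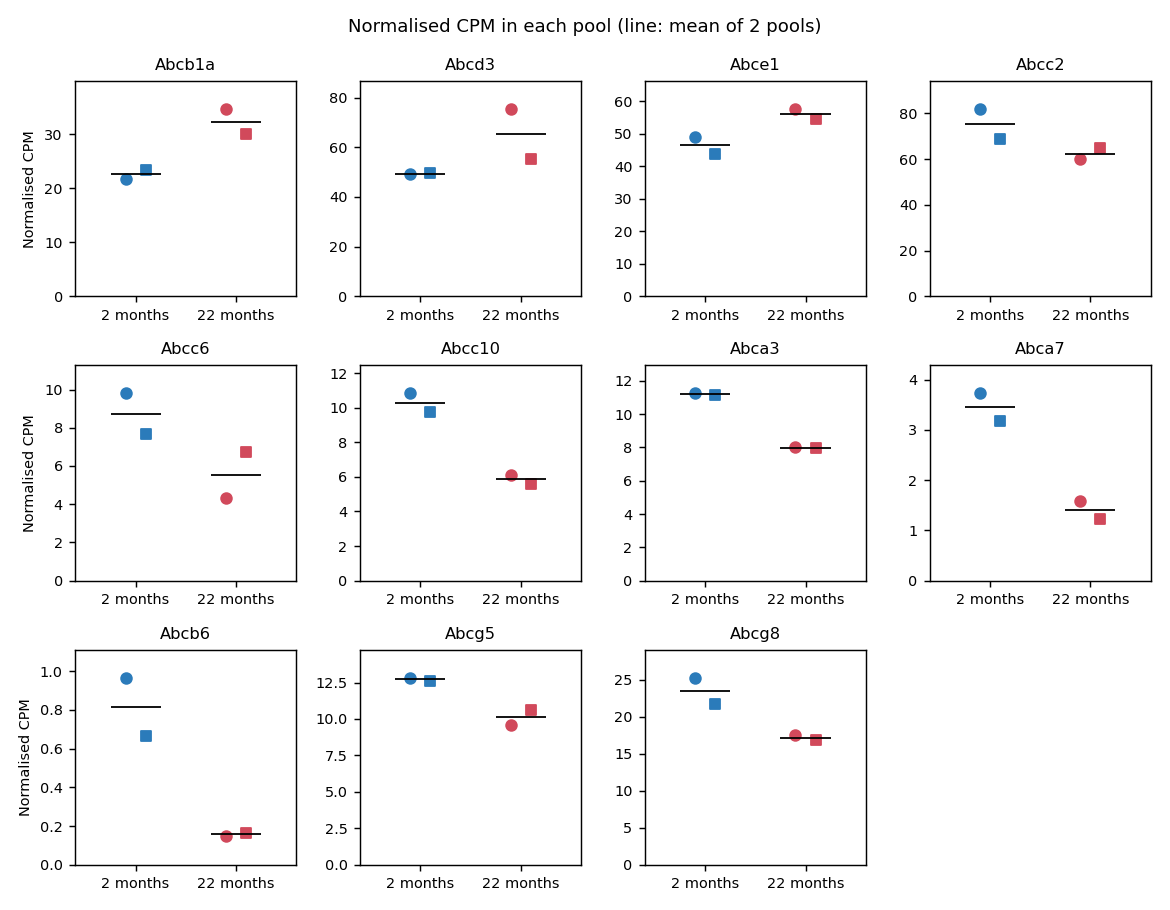
Normalised CPM of 11 ABC transporter genes in each pool, on axes that start at 0, with blue for 2 months, red for 22 months, circles for pool 1, squares for pool 2 and a line at the mean of the 2 pools. They are 9 genes with an unadjusted p under 0.05, with Abcc2 and Abcg5. In each panel the red points lie all above or all below the blue points, and the old pools of Abcd3 lie furthest apart.

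In the peroxisomal subfamily D, Abcd3 had higher values in both old pools, with a log2 fold change that was below 0 only with total counts, where 26 of the 28 members were. Abcd3, or PMP70, the main fatty acid importer of the peroxisomal membrane, had 714 and 749 counts at 2 months, against 996 and 674 at 22 months. Its level was 49.3 and 49.6 CPM at 2 months, against 75.4 and 55.2 CPM at 22 months, so that the ages did not overlap but the old pools lay far apart. The log2 fold change was 0.40 (interval 0.098 to 0.71, FDR = 0.16), 0.61 without ISC_22mth pool 2 (FDR = 0.0015) and 0.16 without ISC_22mth pool 1, so most of its size rests on the latter pool. Abcd4, which helps release cobalamin from lysosomes, was 7.18 and 4.17 CPM in young and 6.66 and 5.81 CPM in old ISCs, and Abcd2 was at 0.

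Subfamilies E and F act in translation. Abce1, which splits ribosomes after termination so that they can be used again, was 49.1 and 43.7 CPM at 2 months, against 57.6 and 54.6 CPM at 22 months. Its ages did not overlap, and its log2 fold change was 0.27 (interval 0.00020 to 0.55, FDR = 0.30). Abcf1, which promotes translation initiation, was 36.2 ± 4.51 and 40.0 ± 4.28 CPM, with overlapping pools and a log2 fold change of 0.14 (interval -0.16 to 0.45) that ran from 0.023 without ISC_2mth pool 1 to 0.27 without ISC_2mth pool 2 and was 0.031 without ISC_22mth pool 1. Abcf2 was 8.69 and 8.88 CPM at 2 months, against 12.7 and 8.44 CPM at 22 months, and Abcf3 was 11.6 and 15.2 CPM at 2 months, against 11.0 and 11.0 CPM at 22 months. The log2 fold changes of Abcf2 and Abcf3 were 0.27 and -0.29, and each interval included 0. That of Abcf2 became -0.057 without ISC_22mth pool 1 and 0.53 without ISC_22mth pool 2.

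Genes that work with the family, in 7 lists of 68 genes, had 2 calls among the 62 tested, a share near the 2.26% of all genes tested. The lists were ABC proteins under other symbols (3 of 3 tested), sterol and bile acid flux (14 of 15), regulators of drug exporter genes (8 of 9), peroxisomal partners (10 of 11), iron-sulphur and haem synthesis (20 of 20), translation partners (7 of 8) and potassium channel pores joined to Abcc8 and Abcc9 (0 of 2). The channel pores Kcnj8 and Kcnj11 held at most 2 counts in a library. Cftr, the chloride channel of the crypt, which belongs to subfamily C under another symbol, had more counts than any member, at 3255 and 3575 at 2 months, against 3306 and 3048 at 22 months, with a log2 fold change of 0.12 (interval -0.12 to 0.35, FDR = 0.64). Tap1 and Tap2, the peptide transporters of antigen presentation, which belong to subfamily B, had log2 fold changes of 0.46 and 1.09, from 4.74 ± 0.613 to 6.51 ± 1.92 CPM and from 0.947 ± 0.0270 to 2.03 ± 0.725 CPM, and did not pass the threshold (FDR = 0.43 and 0.35).

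Among the regulators, Nfe2l2, a transcription factor that induces detoxification genes including Abcc exporters, rose with a log2 fold change of 0.52 (FDR = 0.030). It stayed positive but its call was lost with the correction for GC content and length (0.42, FDR = 0.13), without ISC_2mth pool 1 (0.39, FDR = 0.39) and with total counts (0.036, FDR = 0.84), which lowered all genes by a median of 0.50. The nuclear receptors Nr1i2, which senses drugs, and Nr1h3 and Nr1h2, which sense oxysterols and induce Abca1 and Abcg5, had log2 fold changes of 0.091, 0.0022 and -0.27, with intervals that included 0. For sterol flux, Npc1l1, which takes sterols up against Abcg5 and Abcg8, was 38.2 ± 3.74 CPM in young and 45.2 ± 4.25 CPM in old ISCs (log2 fold change 0.24, FDR = 0.41). In that list 9 of 14 genes tested had a positive value, with a median of 0.15, and Apoa1 and Fabp6 had the lowest p (log2 fold changes 0.85 and 0.75, FDR = 0.17 and 0.18).

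Of the peroxisomal partners, 8 of 10 had a positive log2 fold change with a median of 0.12, and Pex19, which delivers Abcd proteins to the membrane, stood at 0.21 (FDR = 0.60). Of the iron-sulphur and haem genes, 11 of 20 were positive with a median of 0.082, and Ppox and Fech, the last enzymes of haem synthesis, had the lowest p, with log2 fold changes of -0.53 and 0.40 (FDR = 0.22 and 0.23). Of the translation partners, Gcn1l1, which senses stalled ribosomes, fell by 0.75 on the log2 scale (FDR = 0.022). Its call was lost with the correction for GC content and length, where it lay at -0.53 (FDR = 0.15). The call was also lost without ISC_2mth pool 1, where it lay at -0.75.

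Markers of enterocytes, the absorptive cells in which Abcg5, Abcg8, Abcb1a and Abcc2 are best known, had 3 of 12 genes called higher in old ISCs (Fabp1, Fabp2 and Sis), 11 of 12 with a positive log2 fold change and none at 0. Their summed level was 530 and 647 CPM at 2 months, against 1071 and 892 CPM at 22 months. Abcg5, Abcg8 and Abcc2 had lower values in the old pools, where this sum was higher, and Abcb1a had higher values. Paneth cell markers, with 2 of 8 called higher, summed to 931 and 719 CPM at 2 months, against 2069 and 805 CPM at 22 months, and pool 1, the higher of the old pools for them, was the highest of the 4 pools for 9 of the 28 ABC transporter genes tested and the lowest for 7. These numbers were 12 and 8 for ISC_2mth pool 1, 5 and 6 for ISC_2mth pool 2, and 2 and 7 for ISC_22mth pool 2. They have no share over all genes beside them, so nothing is drawn from them. Goblet markers summed to between 1948 and 2660 CPM with 0 called, enteroendocrine markers to between 42.4 and 155 CPM with 0 called, and tuft markers to between 3.11 and 9.61 CPM with Dclk1 called. The part of these cells in the values of the ABC transporter genes was not tested.

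The RefSeq promoter windows, 250 bases before to 50 after each start, were matched for 38 of the 50 members in 45 windows. The core of the antioxidant response element, TGACNNNGC on either strand, to which the product of Nfe2l2 binds, was found in 7 of these windows (15.6%), against 12.4% of all 32851 windows. It lay in 2 windows each of Abcc4 and Abcc10 and in 1 each of Abca8b, Abcb1a and Abcc2. The DR4 form of the LXR response element, searched without mismatch and through which the oxysterol receptors act, was found in 0 member windows and in 0.0152% of all windows. TATAAA lay in 15.6% of member windows and 13.6% of all, and CCAAT in 35.6% and 37.4%. The matches before the RefSeq starts of Abcc2, Abcc4 and Abcc10 are shown as all such matches in the drug-exporting subfamily C, with the match in capitals, on the strand of the gene (chr19:43782200-43782228 on the plus strand, and chr14:118706226-118706254, chr14:118676936-118676964 and chr17:46328208-46328236 on the minus strand of GRCm38.p6).
Abcc2: ctcactgggaTGACATAGCattcatctag
Abcc4, first window: gccccgagagGCGGGGTCAgggcgggccg
Abcc4, other window: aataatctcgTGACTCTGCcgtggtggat
Abcc10: cgcagcacccTGACCTGGCagcgcgtcct
The RefSeq starts of these windows, at 43782308 for Abcc2 and 46328023 for Abcc10, lie inside the genes as GENCODE gives them, so that the stretches of these genes fall within a GENCODE exon, which for Abcc2 is untranslated there. The window of Abcb1a belongs to a RefSeq start at 8567091, outside the GENCODE span of the gene given above, and its match lay 27 bases after that start. Members with the match differed in direction, as Abcb1a had a log2 fold change of 0.52, Abcc10 of -0.81, Abcc2 of -0.27 and Abcc4 of 0.0065, and Abca8b was not tested. A match is a description of these letters, not of binding.

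The direction of the clearest members held in most alternatives. Over 16 alternatives, Abcc10 lay between -1.31 and -0.61, Abca7 between -1.78 and -1.04, Abcg8 between -0.95 and -0.33, Abcg5 between -0.82 and -0.25 and Abca3 between -0.98 and -0.36. Abcb1a lay between 0.027 and 0.62, and Abcd3, Abce1 and Abcg2 were positive in 15 of 16, the exception being total counts, at -0.094, -0.22 and -0.22. Total counts called Abca3, Abca7, Abcb8, Abcc1, Abcc2, Abcc6, Abcc10, Abcf3, Abcg5 and Abcg8 lower. Among the members named here, the other alternatives called Abcc10 and Abcb1a 3 times each and Abcc6 and Abcd3 once each.

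**Figure D5:**
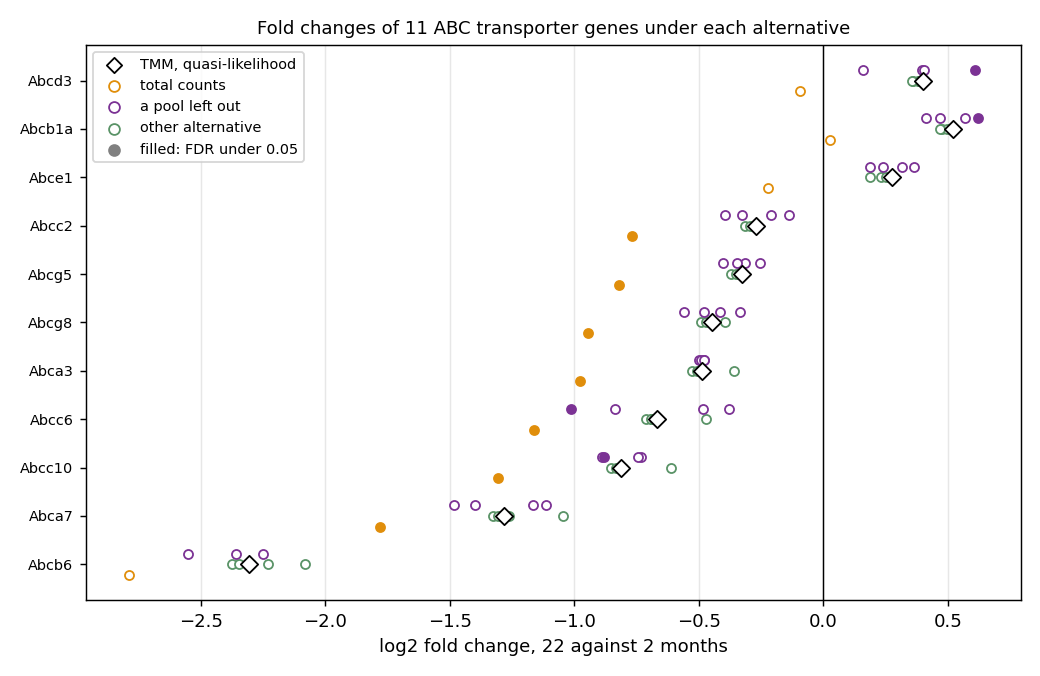
Log2 fold change, 22 against 2 months, of 11 ABC transporter genes in the TMM-normalised quasi-likelihood test (diamonds) and under each alternative (circles), filled where FDR was under 0.05, with the filled points of the likelihood ratio test and the replicate block behind the diamonds of Abcb1a and Abcc10. Scaling by total counts moves all points to the left by about 0.5, as it does for all genes, and the points with a pool left out spread most for Abcd3, Abcc6 and Abca7.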

How the data were processed

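RNA of sorted ISCs was amplified by SPIA, which adds no molecular identifiers, and sequenced single-end. The authors trimmed reads with Trimmomatic (version 0.30), aligned them with STAR to GRCm38 and counted exonic reads of GENCODE vM15 genes with featureCounts. The values they deposited are raw counts per gene and library. The strand and multi-mapping settings are not given in the sources used here.

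Ages and replicates came from the labels. A gene was tested when at least 1 pool held more than 5 of its reads at a level above 1 CPM of the unscaled library total (13692 of 52459), the filter of the study. Tests used edgeR 4.0.16 in R 4.3.3 (TMM, glmQLFit, glmQLFTest, no covariate, FDR 0.05). CPM are per TMM-scaled library of the genes tested. Confidence intervals come from the log2 fold change, the F value and its degrees of freedom. Alternatives used limma 3.58.1, DESeq2 1.42.0, other scalings and filters, the replicate number as a block, offsets for GC content and length, and each pool left out. Fits were tested on simulated counts. Replicate pools differed by more than sampling noise (chi-square per gene 9.42 in ISC_2mth and 7.11 in ISC_22mth), and p-values measure the spread between pools only.

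Genes named are members with FDR or unadjusted p under 0.05, the 10 highest per kb, the highest of each subfamily, 10 intestinal exporters, the related genes called and otherwise the 2 of lowest p of a list, and the remaining members by range or count. The members, lists and motifs were chosen with earlier results of these data known. Positions, lengths and GC content come from GENCODE vM21 of GRCm38, matched by symbol for 50 of 50 members, and promoters from RefSeq (GRCm38.p6). Some members and partners that the rule names are not reported here, but stay in the counts and sums.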

Additional observations from a re-analysis of the deposited data

How the results depend on the processing

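No ABC transporter gene passed FDR 0.05 in the quasi-likelihood test, nor under limma voom, DESeq2, RLE size factors, the upper quartile, TMM without mitochondrial and ribosomal RNA-like genes, the other filters or the offsets for GC content and length. The likelihood ratio test called 1 higher and 1 lower, and total counts 10 lower, with a median of the members of -0.48 as the whole table shifted. With a pool left out, 0 to 2 members were called higher and 0 to 1 lower, and the median stayed between -0.077 and -0.023, where an age then has a single pool that is assumed to vary like the others. With the replicate block, 1 was called higher (Abcb1a) and 1 lower (Abcc10). Same-numbered pools did not deviate together (correlation -0.00015), and the labels give no shared origin for a number.

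Over all genes, 309 were called, 611 by the likelihood ratio test, 197 by DESeq2, 4650 with total counts, 554 without a filter, 623 with the block, 126 with the offsets and between 151 and 710 with a pool left out. Of the related genes, 2 were called, 20 with total counts, 5 without a filter, 5 with the block, 0 with the offsets and between 0 and 5 with a pool left out.

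With total counts the log2 fold change turned for Abce1 (-0.22), Abcg2 (-0.22), Abcd3 (-0.094), Abcf1 (-0.34), Abcf2 (-0.23), Abcc3 (-0.38), Abcb8 (-0.49) and Abcc4 (-0.48). Abcb8, near 0 throughout, also turned with DESeq2 (-0.0024), RLE (-0.0025), the upper quartile (-0.040), no filter (-0.0068), filterByExpr (-0.0044) and at least 10 counts in every library (-0.021). Abcc4 turned with the upper quartile (-0.034), no filter (-0.0025) and at least 10 counts (-0.016). With a pool left out, values ran from -0.55 to 0.058 for Abcc1, -0.057 to 0.53 for Abcf2, -0.18 to 0.018 for Abca1, -0.071 to 0.27 for Abcc3, -0.074 to 0.079 for Abcb8 and -0.18 to 0.21 for Abcc4. The cause of the other changes was not tested.

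Depth limits the members under about 1 CPM, whose intervals span several units on the log2 scale.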
